A study of Mus musculus with 4 samples.

Results

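The genes described here encode subunits of class I phosphoinositide 3-kinase (PI3K), the adaptor Pik3ap1 that brings PI3K to B cell receptors, and the lipid phosphatase Inpp5d. They were listed by symbol and are 9 of the 34866 genes in the deposited table. The values came from RNA-sequencing of B220+ IgM+ splenocytes of 2 sick λ-MYC Tom+/ki mice (tumors #1 and #2), with Tom+ and Tom- cells of each mouse sequenced separately (4 libraries). All cells carried a human MYC transgene under λ light-chain regulatory sequences, a Cre knock-in allele and a Cre-dependent Tomato (Tom) allele at Rosa26, so both groups had the same genotype and differed in the sort. Tom+ cells are those in which the knock-in allele had expressed Cre at some time, and the reporter stays on after that expression ends. The ages of these 2 mice are not given in the sources used here. Each group had 1 library from each mouse, and a wild-type or non-tumor B cell library was not analysed here.

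Class I PI3K phosphorylates the membrane lipid PIP2 to PIP3, which recruits kinases such as AKT and BTK to the membrane. In class IA, a catalytic subunit (p110α from Pik3ca, p110β from Pik3cb, p110δ from Pik3cd) pairs with a regulatory subunit. The latter is p85α or its shorter forms (Pik3r1), p85β (Pik3r2) or p55γ (Pik3r3). In class IB, p110γ (Pik3cg) pairs with p101 (Pik3r5) or p84 (Pik3r6). The regulatory subunits stabilize the catalytic ones, hold down their basal activity and bind phosphotyrosine motifs on receptors and on adaptors such as BCAP (Pik3ap1). SHIP-1 (Inpp5d) removes the 5-phosphate of PIP3 and so counteracts the kinase in B cells, where p110δ is the isoform best known for signaling from the B cell receptor.

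Levels are given in transcripts per 1000000 (TPM), a unit that accounts for transcript length and adds up to the same total in each library. All 9 B cell markers examined, among them Cd79a and Pax5, were above 1 TPM in each library, with a summed level between 2316 and 5999 TPM. Of other cell types, the 5 NK cell markers summed to at most 0.794 TPM, the 4 megakaryocyte markers to at most 2.35 TPM and the 5 erythroid markers to between 0.282 and 19.2 TPM. The 8 T cell markers summed to between 5.30 and 21.1 TPM and the 9 myeloid markers to between 2.70 and 13.5 TPM. The 5 plasma cell markers summed to between 13.8 and 20.1 TPM, apart from 231 TPM in Tom+ cells of tumor #2. In that library Jchain was at 209 and Xbp1 at 21.2 TPM, while Sdc1, Prdm1 and Tnfrsf17 were at 0.428, 0.570 and 0.390 TPM. Jchain, Xbp1 and Prdm1 were highest there, whereas Sdc1 and Tnfrsf17 were highest in Tom- cells of tumor #1 (1.95 and 0.778 TPM). In bulk libraries, fewer cells of a type and less RNA per cell cannot be told apart. Immunoglobulin genes took 5.35% to 9.76% of TPM, mitochondrial genes 6.61% to 15.6% and pseudogenes 23.4% to 31.3%. Leaving out immunoglobulin genes, or keeping nuclear protein-coding genes only, before TPM was rescaled did not change the direction of the mean difference between Tom+ and Tom- cells for any of the 8 tested genes.

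The promoters of Pik3r2 and Pik3ap1, whose Tom+ libraries were both below both Tom- libraries, and of Pik3ca, the gene that was higher in Tom+ cells of both tumors, are shown as the 250 bases before the RefSeq start (GRCm38.p6), 5′ to 3′ on the strand of the gene. Capitals mark the GC box GGGCGG on either strand in the sequences of Pik3r2 and Pik3ca, and the E-box CACGTG, the site of MYC and MAX, in that of Pik3ap1. The windows lie at chr8:70776713-70776962 (Pik3r2, minus strand), chr19:41385103-41385352 (Pik3ap1, minus strand) and chr3:32396815-32397064 (Pik3ca, plus strand).
Pik3r2: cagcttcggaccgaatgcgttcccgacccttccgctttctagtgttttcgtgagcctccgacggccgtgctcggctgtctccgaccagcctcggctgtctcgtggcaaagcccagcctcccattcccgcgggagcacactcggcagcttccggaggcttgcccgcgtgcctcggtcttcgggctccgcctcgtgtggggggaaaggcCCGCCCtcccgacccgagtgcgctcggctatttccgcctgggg
Pik3ap1: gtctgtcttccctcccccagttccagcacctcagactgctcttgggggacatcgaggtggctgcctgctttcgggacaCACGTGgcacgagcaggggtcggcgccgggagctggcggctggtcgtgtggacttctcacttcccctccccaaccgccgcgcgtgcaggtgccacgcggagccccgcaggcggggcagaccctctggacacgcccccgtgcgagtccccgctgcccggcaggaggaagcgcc
Pik3ca: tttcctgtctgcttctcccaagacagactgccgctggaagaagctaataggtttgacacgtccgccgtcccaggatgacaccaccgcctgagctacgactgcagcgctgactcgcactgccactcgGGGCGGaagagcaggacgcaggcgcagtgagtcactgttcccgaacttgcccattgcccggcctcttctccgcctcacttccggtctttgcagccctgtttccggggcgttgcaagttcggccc

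RefSeq gave 13 such windows for the 9 genes, with a GC content between 38.8% and 78.0%, where the median of all 32851 windows was 52.4%. The E-box was found in 1 of the 13 windows, that of Pik3ap1, and in 6.02% of all windows. The FOXO motif GTAAACA was found on either strand in 1 window, of Pik3cg, and in 3.17% of all windows, and the cyclic AMP response element TGACGTCA in 0 of 13 and 1.55%. The GC box occurred in 7 of the 13 windows, from 6 of the 9 genes, and in 32.7% of all windows. These matches describe letters only and are not evidence of binding.

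The level of Inpp5d was the highest on average, at 71.5 ± 12.6 TPM (SD, n = 4 libraries), followed by Pik3ca at 45.5 ± 16.1 and Pik3cd at 25.5 ± 4.22 TPM. Pik3r2 averaged 16.7 ± 10.9 TPM, Pik3ap1 9.27 ± 1.51, Pik3r1 7.75 ± 1.73, Pik3cg 6.82 ± 4.12, Pik3r5 1.91 ± 0.835 and Pik3cb 0.478 ± 0.669 TPM. Between neighbors in this order, the ranges over the libraries were separate for Pik3ca and Pik3cd (34.3 to 69.3 against 19.8 to 29.3 TPM) and for Pik3cg and Pik3r5 (3.36 to 12.8 against 1.14 to 2.99 TPM), and overlapped for the other neighbors. Within each library Inpp5d was above Pik3ca and Pik3ca above Pik3cd.

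**Figure D1:**
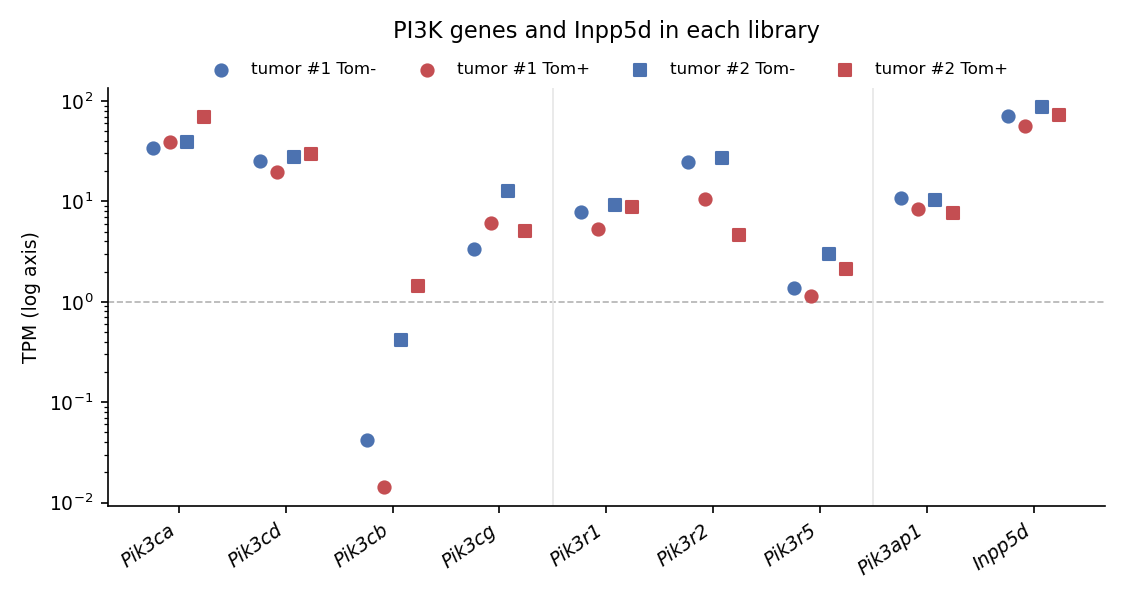
TPM (log axis) of the 9 genes in each of the 4 libraries, with circles for tumor #1, squares for tumor #2, blue for Tom- and red for Tom+ cells, and a dashed line at 1 TPM. Pik3r2 lies at 24.6 and 27.1 TPM in Tom- cells and at 10.5 and 4.62 TPM in Tom+ cells, while Pik3cb exceeds 1 TPM only in Tom+ cells of tumor #2.

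To ask whether expression of the PI3K machinery differs with past Cre expression, the Tom+ library of each mouse was set against its Tom- library by limma on log2(TPM + 1), with the tumor as a block. The fit covered the 11339 genes that reached 1 TPM in 2 or more libraries. It held 8 of the 9 genes, and Pik3cb was too low to be tested. None of the 8 had an adjusted p-value below 0.05 (limma, Benjamini-Hochberg over all tested genes), where the share of all genes was 0.0%, and their adjusted p-values lay between 0.936 and 0.971. At an unadjusted p-value below 0.05, 530 of the 11339 genes were called (4.67%) and 1 of the 8, Pik3r2. With 2 pairs, an exact permutation test of a single gene cannot give a p-value below 0.5. Pik3r1, Pik3r2, Pik3r5, Pik3ap1 and Inpp5d were lower in Tom+ cells of both tumors, 5 of 8 where 29.5% of all tested genes were so, though Pik3r1 was 0.026 higher on the log2 scale in tumor #2 when TPM was rescaled to nuclear protein-coding genes. Pik3ca alone was higher in both tumors, 1 of 8 against 21.6% of all genes. Pik3cd and Pik3cg went in opposite directions in the tumors, 2 of 8 where 47.3% of all tested genes did so. The median log2 fold change of the 8 genes was -0.26, and that of all tested genes was -0.033.

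The gene of p85β, a regulatory subunit that most tissues express beside p85α, had the largest difference of the 8 tested genes. Pik3r2 (ENSMUSG00000031834, chromosome 8, 70768176 to 70776713 on GRCm38) was at 24.6 TPM in Tom- and 10.5 TPM in Tom+ cells of tumor #1, while tumor #2 gave 27.1 and 4.62 TPM. Both Tom+ libraries were thus below both Tom- libraries, which were close to each other. The Tom+ level was 0.428 of the Tom- level in tumor #1 and 0.171 in tumor #2. The log2 fold change was -1.74 (SE 0.37), with a 95% interval from -2.87 to -0.61 that is not adjusted for the number of genes and an adjusted p-value of 0.936 from limma (unadjusted 0.0154). Tom+ cells of tumor #2, the lowest library, also had the highest summed plasma cell markers (231 TPM, of which Jchain 209, against 20.1 TPM in Tom- cells of that tumor), while in tumor #1 these markers summed to 13.8 TPM in Tom- and 15.6 TPM in Tom+ cells, and their part in the Pik3r2 level was not tested. Of these markers, Xbp1 and Prdm1 were also highest in Tom+ cells of tumor #2, but Sdc1 and Tnfrsf17 in Tom- cells of tumor #1. Among the 11339 genes, 165 had a larger absolute fold change than Pik3r2. The annotated gene overlaps 6330537M06Rik on the opposite strand by 45 bases at its 3′ end. That gene has no row in the table used here, and whether the libraries kept strand is not given in the sources used here.

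The gene of p85α showed a smaller difference, mainly in tumor #1. Pik3r1 (chromosome 13, 101680563 to 101768217) was at 7.77 (Tom-) versus 5.31 TPM (Tom+) in tumor #1 and 9.20 versus 8.74 TPM in tumor #2, so the groups overlapped (mean -0.27 on the log2 scale, SE 0.22, adjusted p = 0.936 from limma). Its TPM covers all 7 annotated transcripts, so p85α and its shorter forms were not separated. Pik3r2 made up 75.97% of the summed TPM of Pik3r1 and Pik3r2 in Tom- cells of tumor #1 and 74.7% in those of tumor #2, but 66.4% and 34.6% in Tom+ cells. Pik3r2 was thus above Pik3r1 in 3 libraries and below it in Tom+ cells of tumor #2.

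The catalytic genes differed from one another. Pik3ca (ENSMUSG00000027665, chromosome 3, 32397671 to 32468486), which encodes the ubiquitous p110α, was at 34.3 (Tom-) versus 39.1 TPM (Tom+) in tumor #1 and 39.4 versus 69.3 TPM in tumor #2. Tom+ cells of tumor #2 stood above the other libraries, and the groups overlapped, since Tom+ cells of tumor #1 were just below Tom- cells of tumor #2. The library with the highest Pik3ca was also the one with 231 TPM of plasma cell markers, of which Jchain 209, against 13.8 to 20.1 TPM in the others. Xbp1 and Prdm1 were highest in that library too, but Sdc1 and Tnfrsf17 were highest in Tom- cells of tumor #1. The part of these markers in the Pik3ca level was not tested. The log2 fold change was 0.18 in tumor #1 and 0.80 in tumor #2, 0.49 over both (SE 0.22, 95% interval -0.19 to 1.17, adjusted p = 0.936 from limma).

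The gene of the leukocyte isoform p110δ did not go one way. Pik3cd (chromosome 4, 149649168 to 149702571) was at 25.0 (Tom-) versus 19.8 TPM (Tom+) in tumor #1 and 27.9 versus 29.3 TPM in tumor #2. The log2 change was -0.33 in tumor #1 and 0.072 in tumor #2 (95% interval of the mean -0.71 to 0.45), and the groups overlapped. Its share of the summed class I catalytic TPM was nonetheless smaller in Tom+ cells of both tumors, 39.9% against 30.4% in tumor #1 and 34.6% against 27.9% in tumor #2. Pik3ca took 54.6% and 49.0% of that sum in Tom- cells and 60.2% and 65.9% in Tom+ cells. The ratio of Pik3cd to Pik3ca was 0.731 in Tom- and 0.506 in Tom+ cells of tumor #1, and 0.707 and 0.423 in tumor #2. These ratios were taken within a library, so a constant scaling factor for a library cancels. Quantile normalization is not such a factor, and with it the mean difference in the Pik3cd share (Tom+ minus Tom-) was -8.20 in place of -8.13 percentage points.

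Pik3cb (chromosome 9, 99036654 to 99140621), the gene of p110β, was at 0.0417 (Tom-) versus 0.0141 TPM (Tom+) in tumor #1 and 0.412 versus 1.44 TPM in tumor #2. Its share of class I catalytic TPM was at most 1.37%.

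Of the class IB genes, Pik3cg differed in opposite directions in the tumors and Pik3r5 was low in each library. Pik3cg (chromosome 12, 32173473 to 32208659), the gene of p110γ, which acts downstream of G protein-coupled receptors in leukocytes, was at 3.36 (Tom-) versus 6.05 TPM (Tom+) in tumor #1 and 12.8 versus 5.12 TPM in tumor #2. Its Tom+ level was therefore 80.2% above the Tom- level in tumor #1 and 0.401 of it in tumor #2, and the 95% interval of the mean log2 fold change ran from -1.94 to 1.47. Tom- cells of tumor #2, the library with the highest Pik3cg, also had the highest summed myeloid markers (13.5 TPM, with 5 of 9 at 1 TPM or more, against 2.70 to 7.28 TPM and 1 of 9 in the other libraries). Lyz2, Itgam, S100a8 and S100a9 were highest in that library. Cd68, the largest of these markers there, was higher in Tom+ cells of tumor #2 (6.41 against 4.58 TPM). Csf1r, Adgre1 and Csf3r were under 1 TPM and Cd14 at 0 in each library. The part of these markers in the Pik3cg level was not tested. The p101 gene Pik3r5 (chromosome 11, 68432121 to 68497849) was at 1.37 (Tom-) versus 1.14 TPM (Tom+) in tumor #1 and 2.99 versus 2.14 TPM in tumor #2, and its groups overlapped. Its mean log2 change was -0.25 (SE 0.24), at an adjusted p-value of 0.936 in limma.

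**Figure D2:**
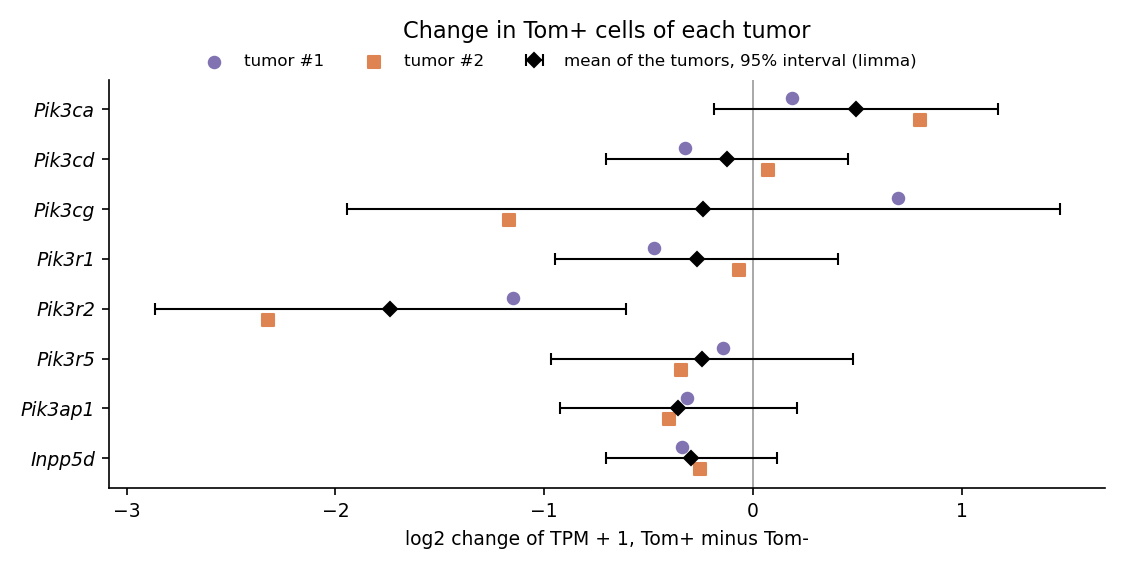
Log2 change of TPM + 1 from Tom- to Tom+ cells in tumor #1 (circles) and tumor #2 (squares) for the 8 tested genes, with the mean over both tumors and its 95% interval from limma (diamonds and bars, not adjusted for the number of genes). Only the interval of Pik3r2, -2.87 to -0.61, excludes 0, and Pik3cg and Pik3cd lie on opposite sides of 0 in the tumors.

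In Tom+ cells of both tumors, the balance of class IA transcripts was lower on the regulatory side, here Pik3r1 and Pik3r2 only. Pik3r3, another class IA regulatory gene, was left out of these sums and ratios. It was at 0.609 (Tom-) versus 1.11 TPM (Tom+) in tumor #1 and 4.74 versus 4.26 TPM in tumor #2. In Tom+ cells of tumor #2 it was thus near Pik3r2, at 4.62 TPM. The summed TPM of Pik3r1 and Pik3r2 was 32.3 in Tom- and 15.8 in Tom+ cells of tumor #1, and 36.3 and 13.4 in tumor #2. The summed TPM of Pik3ca, Pik3cb and Pik3cd was 59.3 and 58.9 in tumor #1, and 67.7 and 100.1 in tumor #2. The ratio of regulatory to catalytic TPM was therefore 0.545 in Tom- and 0.269 in Tom+ cells of tumor #1, and 0.536 and 0.133 in tumor #2, with a mean difference of -0.34 ± 0.090 (SD, n = 2 tumors). Most of this difference came from Pik3r2, the gene on which the comparison of single genes also turned, so it is not independent of it. Transcript ratios are not protein ratios, and no test was made of them.

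**Figure D3:**
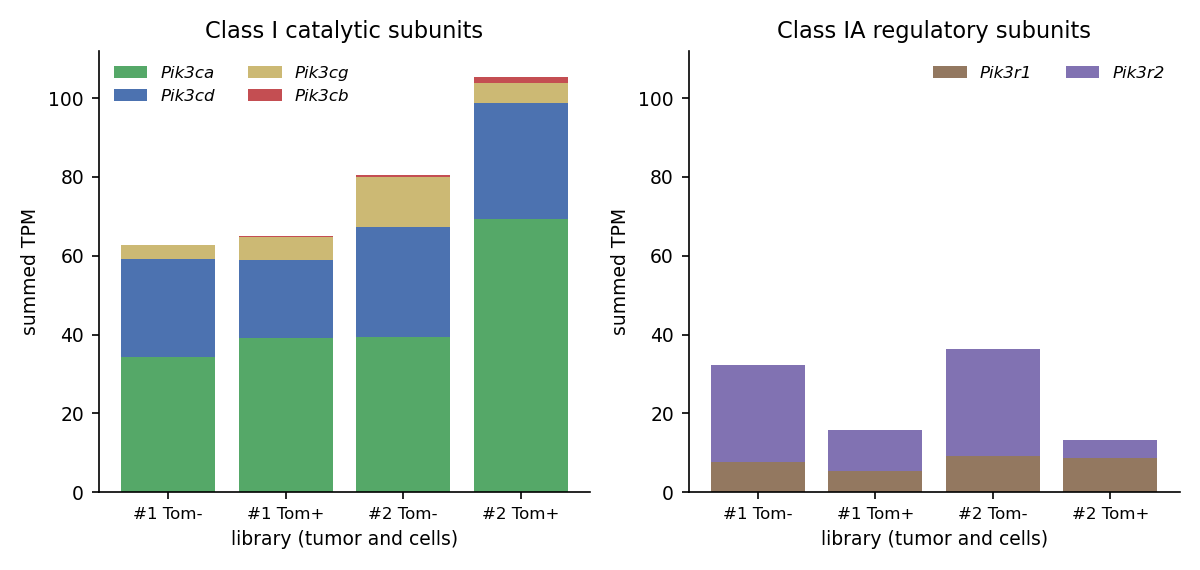
Summed TPM of the 4 class I catalytic genes (left) and of the class IA regulatory genes Pik3r1 and Pik3r2 (right) in each library, on the same linear axis from 0. Pik3r3, another class IA regulatory gene, is not included. The Pik3r1 and Pik3r2 sum is 32.3 and 36.3 TPM in Tom- cells and 15.8 and 13.4 TPM in Tom+ cells.

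Pik3ap1 and Inpp5d were each lower in Tom+ cells by a similar amount in both tumors. Pik3ap1 (ENSMUSG00000025017, chromosome 19, 41272377 to 41385102), which links the B cell receptor to p85, was at 10.7 (Tom-) versus 8.40 TPM (Tom+) in tumor #1 and 10.4 versus 7.60 TPM in tumor #2. Both Tom+ libraries were below both Tom- libraries (mean -0.36 on the log2 scale, SE 0.19, 95% interval -0.93 to 0.21, adjusted p = 0.936 from limma). Such separation was seen for 2 of the 8 genes, Pik3r2 and Pik3ap1, and for 9.86% of all tested genes, and the opposite separation for 0 of 8 genes and 6.42% of all.

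Inpp5d (ENSMUSG00000026288, chromosome 1, 87620312 to 87720507), the gene of SHIP-1, was at 71.0 (Tom-) versus 55.9 TPM (Tom+) in tumor #1 and 86.6 versus 72.4 TPM in tumor #2. Tom+ cells of tumor #2 were slightly above Tom- cells of tumor #1, so the groups overlapped, while within each mouse the Tom+ level was 0.787 and 0.836 of the Tom- level. The log2 fold change was -0.30 (SE 0.13, 95% interval -0.71 to 0.11, adjusted p = 0.936 from limma). The ratio of Inpp5d to the summed class I catalytic TPM was 1.13 in Tom- and 0.861 in Tom+ cells of tumor #1, and 1.08 and 0.688 in tumor #2.

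Between the mice, 6 of the 8 genes had a log2 difference (tumor #2 minus tumor #1) above 0.20, the median of all tested genes. Being the median, it is exceeded by as many genes as fall short of it. Pik3r2 and Pik3ap1 had a lower mean in tumor #2. The libraries of the mice also differed in the share of mitochondrial genes (6.61% and 8.67% of TPM in the libraries of tumor #1, 14.4% and 15.6% in those of tumor #2) and in summed B cell markers (2480 and 2316 TPM, against 5159 and 5999 TPM). With nuclear protein-coding genes only, 6 of the 8 genes again exceeded the median difference of all genes, while the part of the B cell markers was not tested. Both libraries of tumor #2 were above both of tumor #1 for 5 of the 8 tested genes (Pik3ca, Pik3cd, Pik3r1, Pik3r5 and Inpp5d), where 44.8% of all tested genes were so and 23.7% were separated in the other direction, which was seen for none of the 8 genes. The median log2 difference of all genes was 0.20 as deposited but -0.0079 with trimmed-mean scaling, so differences were read against it, and 6 of the 8 genes exceeded the median under both. The tumor term of the limma fit, which compares libraries of 2 single mice and not a condition, called 491 genes at an adjusted p-value below 0.05 (4.33%) and 0 of the 8 genes, whose adjusted p-values were 0.159 to 0.762. Relative to the median, Pik3r5 was 0.45 and Pik3ca 0.30 higher in tumor #2 on the log2 scale. Pik3cg was 0.52 higher on average, but before the median was subtracted its difference was 1.66 between the Tom- libraries and -0.20 between the Tom+ libraries. For Pik3r2 the value was -0.65, although its Tom- libraries were 0.14 apart in the other direction before the median was subtracted.

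In related lists, 83 other genes of phosphoinositide metabolism and its surroundings were examined, of which 72 were tested. None passed an adjusted p-value of 0.05 in Tom+ against Tom- cells, and 2 (2.78%), Grb2 and Arap1, had an unadjusted p-value below 0.05, a smaller share than the 4.67% of all tested genes. In all, 29 of the 72 (40.3%) were lower and 8 (11.1%) higher in the Tom+ library of both tumors, where the shares of all tested genes were 29.5% and 21.6%, and their median log2 fold change was -0.060. The counts of the single lists below, of 5 to 16 genes each, were not tested against those shares. Of 5 tested genes for other PI3K subunits and related kinases, 1 was lower and 2 were higher in both tumors, with a median of 0.13. The class II kinase gene Pik3c2a was at 4.99 (Tom-) versus 6.55 TPM (Tom+) in tumor #1 and 12.2 versus 13.1 TPM in tumor #2. Pik3r4, the regulatory partner of the class III kinase, had a log2 fold change of 0.20 (SE 0.21). Of 10 phosphoinositide kinases, 4 were lower and 0 higher in both tumors (median -0.13), and the PI4-kinases Pi4k2a and Pi4k2b were among the lower, at -0.24 (SE 0.20) and -0.21 (SE 0.24).

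Of 14 tested phosphoinositide phosphatases other than Inpp5d, 5 were lower and 1 higher in both tumors, with a median log2 fold change of -0.014. Synj1, a synaptojanin, was at 2.38 (Tom-) versus 1.38 TPM (Tom+) in tumor #1 and 4.69 versus 3.39 TPM in tumor #2. The 5-phosphatase gene Inpp5b was at 74.9 (Tom-) versus 114 TPM (Tom+) in tumor #1 but 98.8 versus 101 TPM in tumor #2.

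The adaptors and receptors that recruit PI3K or SHIP-1 had 6 of 12 tested genes lower and 2 higher in both tumors (median log2 fold change -0.094). The largest differences were those of Dok1 and Dok2, inhibitory docking proteins, at -0.85 (SE 0.38) and -0.55 (SE 0.36), and both rested on tumor #2 (-1.46 and -1.04, against -0.24 and -0.068 in tumor #1). Grb2, an adaptor that SHIP-1 and many receptors bind, was at 85.3 (Tom-) versus 63.6 TPM (Tom+) in tumor #1 and 95.2 versus 70.2 TPM in tumor #2 (adjusted p = 0.936 from limma). Among 16 phosphoinositide-binding effectors, 9 were lower and 1 higher in both tumors (56.2% and 6.25%, against 29.5% and 21.6% of all tested genes). Their median log2 fold change was -0.21. These 16 genes were listed as PIP3-binding effectors, a name too narrow for Plekha1 and Plekha2. Arap1, an Arf GTPase-activating protein, was at 69.7 (Tom-) versus 44.0 TPM (Tom+) in tumor #1 and 137 versus 58.6 TPM in tumor #2 (mean -0.93 on the log2 scale, SE 0.20, adjusted p = 0.936 from limma), and Plekha1 was lower mainly in tumor #1 (-1.08 and -0.084).

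Of 15 genes for FOXO factors, which AKT keeps out of the nucleus, and their known targets in lymphocytes, 4 (26.7%) were lower and 2 (13.3%) higher in both tumors, neither a larger share than the 29.5% and 21.6% of all tested genes, and the median log2 fold change was -0.048. Btg1, an antiproliferative gene, had -0.33 (SE 0.15) and Foxo1 itself 0.24 (SE 0.19).

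**Figure D4:**
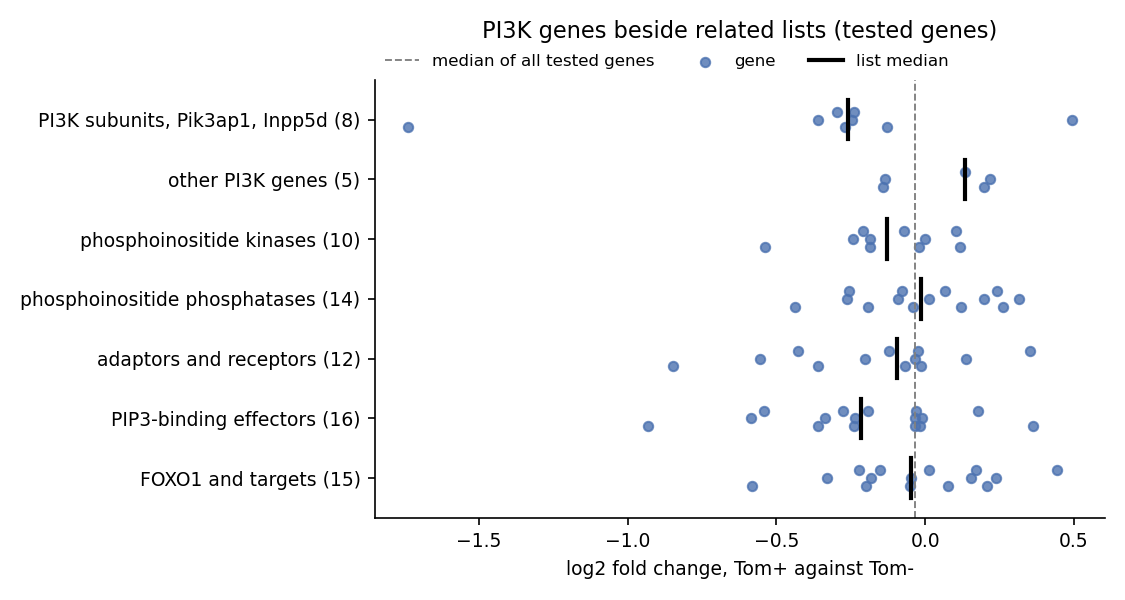
Log2 fold change, Tom+ against Tom-, of each tested gene (points) in the described set and 6 related lists, with the number tested in parentheses, the median of each list (bars) and the median of all 11339 tested genes (dashed line, -0.033). The described genes have a median of -0.26, with Pik3r2 at -1.74 and Pik3ca at 0.49 at the ends, and the related lists have medians between -0.21 and 0.13.

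The genes whose log2(TPM + 1) over the 4 libraries, centered on its mean, was most like that of Pik3r2 were Gm9703, Gm10509, Gm6061, 2200002J24Rik and Gm49661, at Euclidean distances from 0.15 to 0.34. The first 3 are annotated as processed pseudogenes, and 4 of the 5 were listed at 0 in Tom+ cells of tumor #2. Gm10509, the most abundant of them, was at 15.2 (Tom-) versus 7.14 TPM (Tom+) in tumor #1 and 18.7 versus 3.23 TPM in tumor #2.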

How the data were processed

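Single reads of 60 bases were converted with CASAVA 1.8, trimmed with Cutadapt (reads under 30 bp discarded) and quantified with Salmon (1.9 in the submitters' processing notes) on the GRCm38 transcriptome, release 76 in the methods, by the authors, who deposited 1 table of TPM per gene. Each library sums to 1000000, so the read depth behind a value is unknown, and intervals for counting error were not possible. How transcripts were summed to genes is not given in the sources used here. Symbols and positions came from GENCODE M21 (34652 of 34866 identifiers matched), and promoters from RefSeq on GRCm38.p6.

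From the TPM, log2(TPM + 1) was computed for genes that reached 1 TPM in 2 or more libraries. Tom status and tumor were the terms of a linear model in limma 3.58.1 (R 4.3.3), with a variance trend, Benjamini-Hochberg adjustment, 1 residual degree of freedom and 2.21 prior degrees of freedom. P-values rest on how far the Tom change differed between the 2 tumors, together with the prior drawn from all tested genes. For the Tom term, that difference is the spread of the change between 2 mice only. For the tumor term, with 1 mouse for each tumor, the p-values do not measure the spread between mice. Tom- and Tom+ libraries with the same tumor number came from the same mouse, and the study tested paired samples, so the model holds the tumor as a block. The authors' edgeR test needs counts and was not run. Fold changes on this scale understate those of low genes. Tables and plots were made with Python 3.11.15, pandas 2.3.3 and matplotlib 3.10.9.

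The members and lists were chosen with earlier results of these data known. All 9 genes are named, as are, in each other list, the 2 genes with the largest absolute fold change of the same sign in both tumors, the 5 genes most like the member with the largest fold change, and overlapping genes. Besides 6330537M06Rik, those that overlap on the same strand are Gm37123 (1171 bases of Pik3ca), Gm36638 (2169 and 400 bases of Pik3r1) and Mir7023 (64 bases of Pik3cd). None of these has a TPM value here, and their part in the levels of these genes was not tested. Grb2, Pik3r3 and the genes of the closing section were named after their values were seen. Some genes of these lists are not reported here by name.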

Additional observations from a re-analysis of the deposited data

Results flagged for a closer look

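The 2 tumors went in opposite directions for 3 of the 9 genes, 2 of them among the 8 tested, where 47.3% of all tested genes did so, and with 1 pair of libraries in each tumor the difference between the tumors was not tested. Pik3cg, the gene of p110γ, had a log2 change of 0.69 in Tom+ cells of tumor #1 and -1.17 in those of tumor #2. Pik3cd, the gene of p110δ, had -0.33 in tumor #1 and 0.072 in tumor #2. Pik3cb, the gene of p110β, had -0.039 and 0.79, from levels at or below 1.44 TPM in each library.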

How the results depend on the processing

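Under 11 other settings (no filter, pseudocounts of 0.5 and 0.1, quantile normalization, trimmed-mean scaling, a minimum mean of 5 TPM, no replicate block, TPM without immunoglobulin genes, nuclear protein-coding genes only, no variance trend, a robust prior), 0 genes passed for Tom+ against Tom- cells, and each of the 8 tested genes kept its direction and its side of the threshold wherever it was tested (Pik3r5 was not with a minimum mean of 5 TPM). For Pik3r2 the log2 fold change ranged from -1.87 to -1.70, with adjusted p-values from limma of 0.830 to 1.00. Without the replicate block, 140 genes in place of 530 had an unadjusted p-value below 0.05, Pik3r2 among them (unadjusted p = 0.0168 from limma), and 0 genes passed after adjustment. The number of genes lower in both tumors was 4 with a minimum mean of 5 TPM and with nuclear protein-coding genes only, and 5 otherwise. With 1 tumor left out, 6 genes were lower and 2 higher in either tumor, Pik3cd ranged from -0.33 to 0.072 and Pik3cg from -1.17 to 0.69, Pik3ca from 0.18 to 0.80 and Pik3r2 from -2.32 to -1.15. Without tumor #1, tumor #2 alone gave the larger values of Pik3ca and Pik3r2.

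For tumor #2 against tumor #1, 491 genes passed as reported, but 2231 without the block, 1 with a pseudocount of 0.1, 1 without a filter, 34 with a minimum mean of 5 TPM, 1 with quantile normalization, 940 without immunoglobulin genes, 2296 with nuclear protein-coding genes and 275 without the variance trend. The cause was not tested. Between the Tom- or Tom+ libraries alone, the tumor difference of Pik3r2 ranged from -1.03 to 0.14 and that of Pik3cg from -0.20 to 1.66. Read depth may limit the low genes Pik3cb and Pik3r5, but TPM does not show whether it does or by how much.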

Other observations

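Of the 72 tested genes in the related lists, 5 (6.94%) passed an adjusted p-value of 0.05 for tumor #2 against tumor #1 in limma, a share near the 4.33% of all tested genes, and the 4 reported here were named after their values were seen. Pik3ip1, an inhibitor of p110 that is also known as a FOXO target, was at 3.06 (Tom-) versus 2.45 TPM (Tom+) in tumor #1 and 34.8 versus 39.8 TPM in tumor #2. Its log2 difference was 3.35 (SE 0.21, adjusted p = 0.0444), 3.15 above the median of all genes. Fcgr2b, the inhibitory Fc receptor that recruits SHIP-1, was at 30.5 (Tom-) versus 31.6 TPM (Tom+) in tumor #1 and 81.3 versus 95.2 TPM in tumor #2. Blnk, the adaptor downstream of SYK, was at 30.9 and 29.7 TPM and at 76.05 and 75.3 TPM.

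S1pr1, a receptor for the exit of lymphocytes from lymphoid organs, was also higher in tumor #2. It was at 11.2 (Tom-) versus 12.1 TPM (Tom+) in tumor #1 and 36.6 versus 42.8 TPM in tumor #2. For each of these 4 genes both libraries of tumor #2 exceeded both of tumor #1, and the difference was positive under each of the 11 other settings. The calls were less stable, since Pik3ip1 passed under 7 of the 11 and the other 3 under 5, with adjusted p-values up to 0.119. The 9 B cell markers also summed higher in tumor #2 (5159 and 5999 TPM) than in tumor #1 (2480 and 2316 TPM), and their part in these differences was not tested. With 1 mouse for each tumor, the tumor and the mouse cannot be told apart.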
